A study of Mus musculus with 5 samples.

Results

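Top2b, the gene of topoisomerase IIβ, carried a cluster of HSF1 peaks in mouse cortical neurons with and without NMDA. Every peak whose summit lay inside the gene (chromosome 14, 16365206 to 16430787, GRCm38.p6, 65582 bp) or within 10 kb of it was taken. This gave 13 of 3646 peaks in the NMDA list and 13 of 3316 peaks in the control list, 26 of 6962 in all. The gene was chosen by the fold enrichment and number of its peaks, which led the control list, and by their presence in both lists. These values are therefore given as a description, with no test.

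HSF1 chromatin immunoprecipitation and sequencing (ChIP-seq) was done on wild-type primary cortical neurons from Swiss-Webster embryos of embryonic day 16, after 13 days in culture. The NMDA group (2 libraries) received 50 µM NMDA, which activates the glutamate receptors named after it, for 10 min and recovered for 20 min without drug. The control group (2 libraries) and the input (1 library of sheared chromatin, without immunoprecipitation) came from neurons with no treatment. The authors deposited a single peak list for each condition, in which the libraries are already combined. Errors between replicates and a test between conditions could therefore not be had. NMDA neurons had no input of their own. The cell type could not be checked against marker genes, because a peak list holds no expression values.

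HSF1 is the transcription factor of the heat shock response. As a trimer it binds heat shock elements, which are built from inverted repeats of GAA and TTC, and its best known targets are chaperone genes. Topoisomerase IIβ cuts both strands of DNA, passes another duplex through the gap and closes it again. It is the type II topoisomerase of neurons that no longer divide, where it is known for its role in long genes and in genes induced by activity. Its paralog topoisomerase IIα, the product of Top2a, serves dividing cells. The title of the series links HSF1 to the catalytic action of this enzyme in neurons.

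The promoter of Top2b is shown because one peak, found in the control list alone, lay at its transcription start. These are the 250 bases before that start (chr14:16364956-16365205, plus strand, GRCm38.p6, from RefSeq), 5′ to 3′. Capitals mark CCAAT boxes, here read on the other strand, and a GC box, also on the other strand:
Top2b promoter: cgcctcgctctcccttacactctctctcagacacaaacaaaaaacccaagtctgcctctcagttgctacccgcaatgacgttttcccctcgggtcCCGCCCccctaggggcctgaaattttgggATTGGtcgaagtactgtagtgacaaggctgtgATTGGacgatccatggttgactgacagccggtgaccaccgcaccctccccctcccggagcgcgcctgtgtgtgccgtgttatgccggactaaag
The searches covered both strands. The window held 2 matches to CCAAT, and 10.1% of 32851 RefSeq promoter windows of the same length held at least 2. It held 1 match to GGGCGG, which 32.7% of windows held at least once. The letters of a heat shock element of 2 units, GAANNTTC or TTCNNGAA, did not occur in this window. They occurred in 6.69% and 7.17% of all windows. Of the 250 bases 57.6% were G or C, against a median of 52.4% over all windows. Genome sequence beyond promoters was not used here, so the bases under the other peaks are not shown.

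The peaks inside the gene left its first part almost empty and crowded its middle and 3′ part. In the NMDA list the first summit lay 24.7 kb after the transcription start, 37.6% of the way along the gene, and all 13 peaks lay from there on. In the control list 1 weak peak lay at the start itself, and the next summit again lay 24.7 kb in, followed by 11 more. The last summit lay 383 bp before the annotated gene end in the NMDA list and 401 bp before it in the control list. Within this stretch, neighbouring summits were 576 to 8535 bp apart in the NMDA list (median 2667 bp) and 326 to 10550 bp apart in the control list (median 3125 bp). The NMDA peaks together covered 7.12% of the gene's length, against 6.52% under the control peaks.

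Outside the gene the cluster stopped. Within 10 kb either side, and also within 50 kb, neither list held a further peak. The nearest summits beyond the gene were 1706 kb before its start and 718 kb after its end in the NMDA list, and 122 kb before and 331 kb after in the control list. The annotated body of Rarb, a retinoic acid receptor gene on the minus strand per RefSeq, comes within 52 bp of the end of Top2b with its 3′ end. Rarb (16430839 to 17082331) held 0 NMDA peaks and 2 control peaks, and Ngly1, which encodes an enzyme that removes sugar chains from proteins and ends 53280 bp before Top2b, held 0 in both. Exon positions were not used here, so no summit is assigned to an exon or an intron, and whether the peaks fit exons was not tested.

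**Figure D1:**
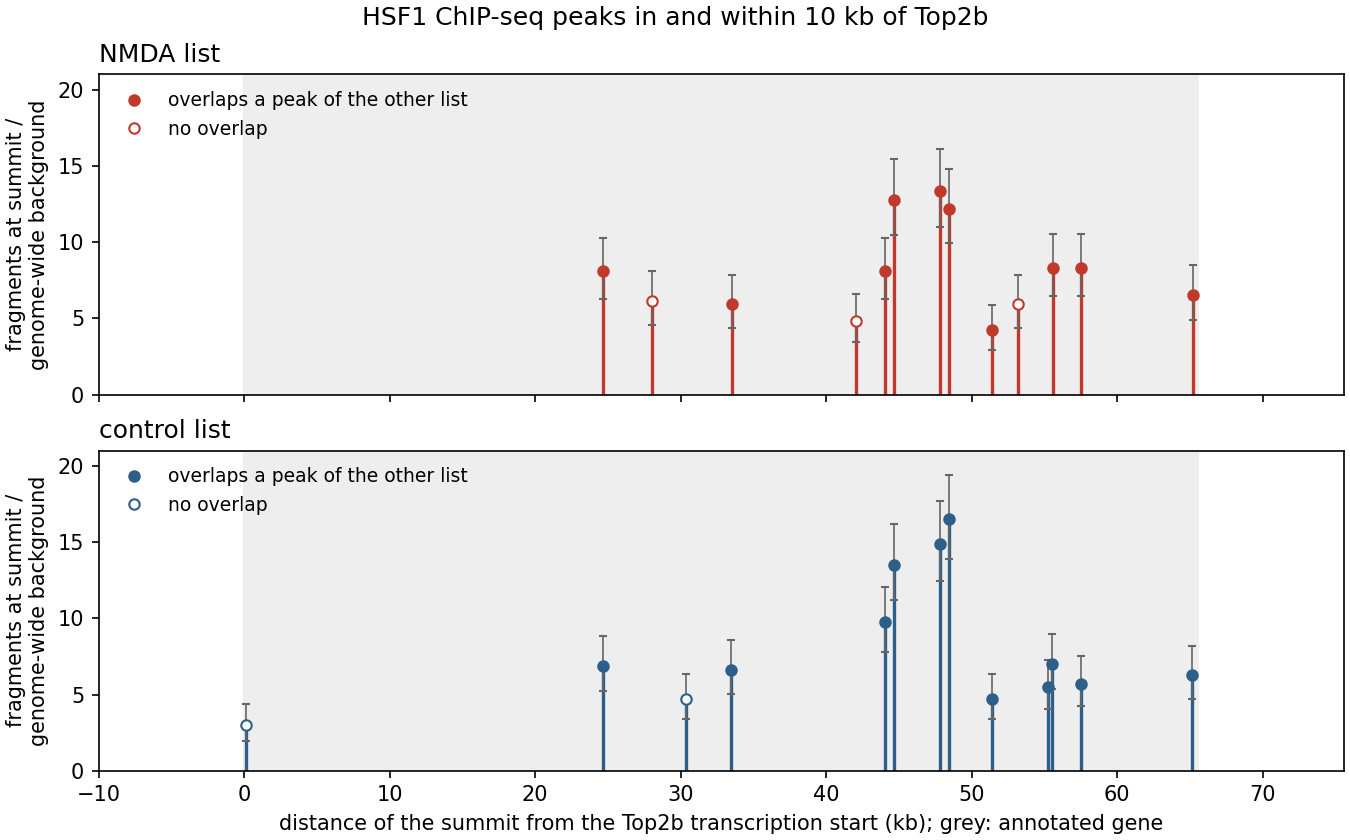
HSF1 peaks in the NMDA list (upper) and the control list (lower), by distance of the summit from the Top2b transcription start in kb. Height is the number of fragments at the summit over the genome-wide background of that list, with 95% Poisson intervals for counting error only, and filled points overlap a peak of the other list (10 of 13 NMDA peaks and 11 of 13 control peaks).

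The height of each peak was taken back to whole fragments. The authors give each peak a fold enrichment and a p. Under the Poisson formula of MACS2, the peak caller named in the submitters' processing notes, these fix both the number of fragments over the summit and the background they were compared with. The fragment number came out whole, within 0.01, for 3642 NMDA peaks (99.9%) and 3307 control peaks (99.7%), although nothing in the calculation asks for whole numbers. Most peaks shared one lowest background, 8.30 fragments in the NMDA list, against 8.74 in the control list, which is taken as the genome-wide value. Heights below are fragments at the summit divided by that value, so that the local background does not enter and the lists can be set side by side. Intervals are exact Poisson 95% intervals. They cover counting error only, not the spread between neuron cultures. A summit is the highest point of its peak, which favours upward fluctuations in both lists.

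The tallest signals were 3 sites that lay 44.7, 47.8 and 48.4 kb from the transcription start. At 44.7 kb (16409744 to 16410068 in the NMDA list, 16409716 to 16410048 in the control list) 106 fragments lay over the summit in the NMDA list, a height of 12.8 (10.5 to 15.5), and 118 in the control list, a height of 13.5 (11.2 to 16.2). At 47.8 kb (16412883 to 16413224 and 16412895 to 16413200) these were 111 fragments in the NMDA list, a height of 13.4 (11.0 to 16.1), and 130 in the control list, a height of 14.9 (12.4 to 17.7). At 48.4 kb (16413459 to 16413820 and 16413491 to 16413843) they were 101 fragments in the NMDA list, a height of 12.2 (9.92 to 14.8), and 144 in the control list, a height of 16.5 (13.9 to 19.4). Within each list the intervals of these 3 sites overlap one another, and their order was not tested. Their deposited folds of 11.5, 9.94 and 9.18 placed them 9th, 13th and 15th of the NMDA list, and those of 12.2, 11.1 and 12.4 placed them 2nd, 3rd and 1st of the control list.

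The other 7 shared sites were lower. At 44.0 kb, next to the first of the tall sites, the height was 8.08 (6.26 to 10.3) in the NMDA list, from 67 fragments, and 9.73 (7.77 to 12.0) in the control list, from 85. At 24.7 kb, where the cluster begins, it was 8.08 (6.26 to 10.3) from 67 fragments in the NMDA list, against 6.87 (5.24 to 8.84) from 60 in the control list. At 33.5 kb it was 5.91 (4.37 to 7.81) from 49 fragments in the NMDA list, against 6.64 (5.04 to 8.58) from 58 in the control list. Within each list the intervals of these neighbours overlap one another, and their order was not tested.

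Toward the 3′ end lay 4 more shared sites. At 51.4 kb, the lowest shared site, the height was 4.22 (2.94 to 5.87) from 35 fragments in the NMDA list, against 4.69 (3.37 to 6.37) from 41 in the control list. At 55.5 kb it was 8.32 (6.47 to 10.5) from 69 fragments in the NMDA list, in 1 peak of 537 bp (16420353 to 16420889), and 6.98 (5.34 to 8.97) from 61 fragments in the control list. There the control list had split the same stretch into 2 peaks of 236 and 228 bp, of which the first, with its summit 55.2 kb in, had 48 fragments. At 57.5 kb the height was 8.32 (6.47 to 10.5) from 69 fragments in the NMDA list and 5.72 (4.25 to 7.54) from 50 in the control list. At 65.2 kb, just before the gene end, it was 6.51 (4.89 to 8.49) from 54 fragments in the NMDA list, against 6.29 (4.74 to 8.19) from 55 in the control list.

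The 2 lists were then compared site by site. Summed over the 10 shared sites, 728 fragments in the NMDA list, against 802 in the control list, gave a ratio of heights of 0.956 (95% interval 0.864 to 1.06, exact conditional interval, counting error only). The ratio of single sites ran between 0.739 at 48.4 kb and 1.45 at 57.5 kb. The interval of the ratio held 1 at 9 of the 10 sites and lay below 1 at the site 48.4 kb in (0.567 to 0.959). At 57.5 kb it ran from 0.995 to 2.14. These intervals are not adjusted for the 10 sites and hold no replicate error, so no site is called different between NMDA and control. The ratio was below 1 at 6 sites and above it at 4. Across the 10 sites the heights of the lists had a Pearson r of 0.912 and a Spearman rho of 0.758, a description of points that share the gene, the input and the libraries of each list. The tall sites lie above all other shared sites in both lists, and neither value was computed without them.

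**Figure D2:**
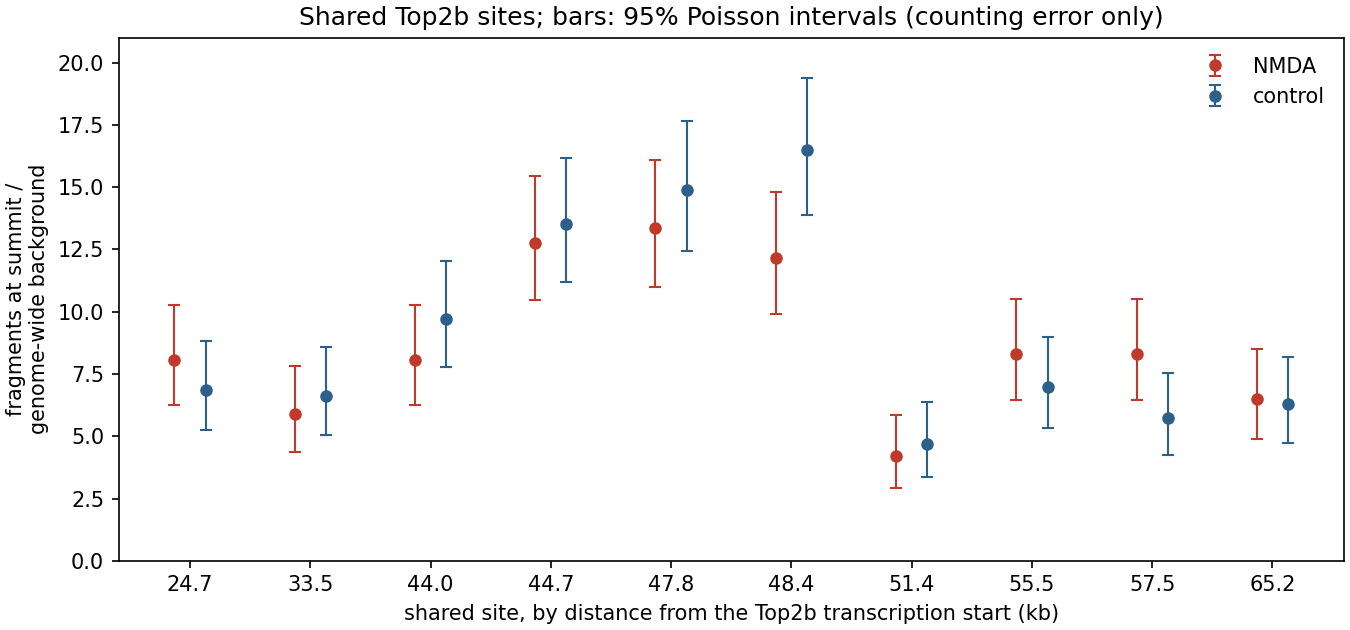
Heights at the 10 Top2b sites found in both lists, NMDA left and control right at each site, as fragments at the summit over the genome-wide background, with 95% Poisson intervals (counting error only). The 3 sites between 44.7 and 48.4 kb are at least 12.2 in both lists, and the remaining ones are at most 9.73.

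Pairing of the peaks was close. The 26 peaks fell on 15 sites, of which 10 were shared, 3 were in the NMDA list alone and 2 in the control list alone. Of the NMDA peaks 10 of 13 (76.9%) overlapped a control peak, where 2.61% of all NMDA peaks did. Of the control peaks 11 of 13 (84.6%) overlapped an NMDA peak, where 2.90% of all control peaks did. Among the other peaks of at least 4-fold, which are closer in strength, 8 of 171 NMDA peaks (4.68%) were paired. In the control list 4 of 7 such peaks (57.1%) were paired, so frequent pairing there was not particular to Top2b. The shared stretch of 3261 bp was 69.8% of the length under the NMDA peaks and 76.2% of that under the control peaks. The choice of the gene rests on this pattern, so these shares are a description.

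Summits of the lists lay close together at the shared sites. At 44.7 kb the NMDA and the control summit were the same base, 16409865. At 47.8 kb they were 3 bp apart, and at 44.0 and 48.4 kb they were 4 bp apart. Over the 10 paired NMDA peaks the distance to the nearest overlapping control summit was 0 to 31 bp, with a median of 12 bp. Over the 11 paired control peaks it was 0 to 339 bp, with a median of 13 bp, and 10 lay within 31 bp. The exception was the first of the 2 control peaks that meet the single NMDA peak at 55.5 kb. The 85 paired NMDA peaks elsewhere in the genome had distances of 0 to 667 bp, with a median of 95 bp, and 19 of them (22.4%) lay within 31 bp. The 8 of these 85 with at least 4-fold enrichment had distances of 3 to 76 bp, with a median of 39 bp, and 2 lay within 31 bp. The limit of 31 bp was read off the Top2b peaks themselves, so the counts within it are a description.

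**Figure D3:**
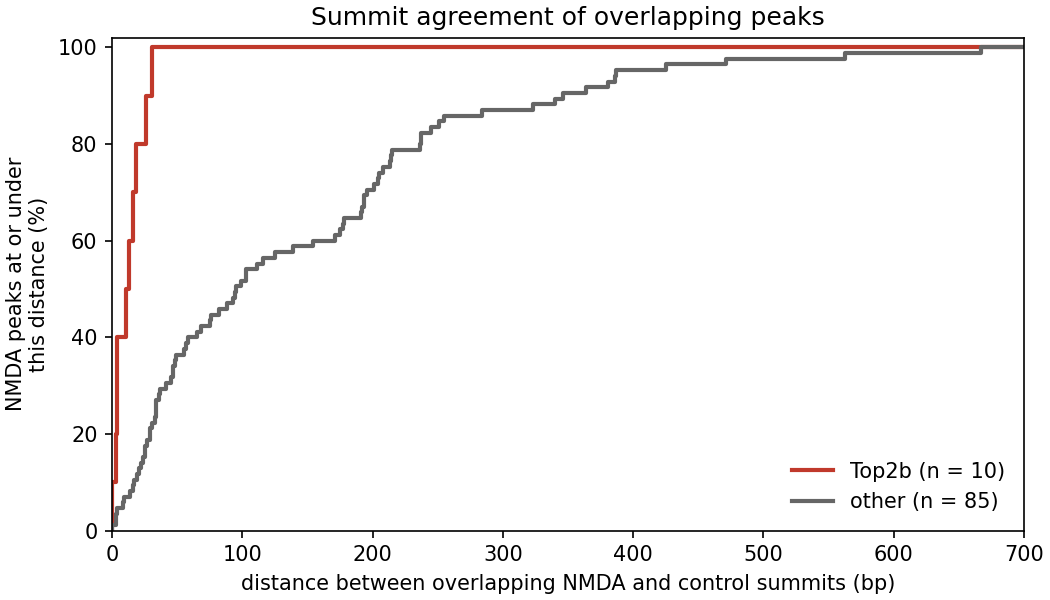
Cumulative share of paired NMDA peaks, in percent, by distance in bp between their summit and the nearest overlapping control summit, for Top2b (10 peaks) and for the rest of the genome (85 peaks). The largest Top2b distance here is 31 bp, so the Top2b curve is complete there by construction. At that distance 22.4% of the other pairs are reached. Of the paired control peaks of Top2b, 10 of 11 lie within it.

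The sites of 1 list were among the lower ones. In the NMDA list alone, peaks lay 28.0 kb (16393133 to 16393366), 42.0 kb (16407034 to 16407404) and 53.2 kb (16418262 to 16418535) from the start. They had 51, 40 and 49 fragments, heights of 6.15 (4.58 to 8.08), 4.82 (3.44 to 6.56) and 5.91 (4.37 to 7.81), and deposited folds of 4.13, 4.41 and 3.97. In the control list alone, a peak 30.4 kb from the start (16395433 to 16395706) had 41 fragments, a height of 4.69 (3.37 to 6.37) and a fold of 2.82. These heights lie in the range of the lower shared sites, which outside the tall sites was 4.22 to 8.32 in the NMDA list and 4.69 to 9.73 in the control list. The signal at these places in the list without a peak is not known, so a missing peak does not show a missing signal.

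The peak at the transcription start was the lowest of the 26 by height and by fold. It was listed in the control list alone (16365239 to 16365544), with its summit 116 bp after the start. Its 26 fragments gave a height of 2.98 (1.94 to 4.36), its deposited fold was 2.47, and it ranked 2192nd of 3316 control peaks by fold. That interval overlaps those of other low control peaks of Top2b, such as 3.37 to 6.37 at 30.4 kb, and the difference was not tested. It began 33 bp after the start, so the promoter bases printed above lie just upstream of it. Of all promoter windows, taken with 50 bases after the start, 0.731% overlapped an NMDA peak and 0.944% a control peak. This is the only one of the 26 peaks within 1 kb of the transcription start, and the only one below the median fold of its list, which was 2.67 over the other control peaks.

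Top2b peaks were high in both lists by fold and by p. The NMDA peaks had 3.29-fold to 11.5-fold enrichment, with a median of 5.42, and 11 of 13 reached 4-fold, where 4.99% of all NMDA peaks did. The control peaks had 2.47-fold to 12.4-fold enrichment, with a median of 5.10, and 10 of 13 reached 4-fold, where 0.513% of all control peaks did. Beside them, 171 NMDA peaks and 7 control peaks elsewhere in the genome reached 4-fold. All 26 had a q below 0.05, a level met by 76.3% of NMDA peaks and 68.9% of control peaks. By p the highest NMDA peak of Top2b, with a −log10 p of 77.3, ranked 14th of its list, and the highest control peak, with 108, ranked 6th. The median width was 342 bp (234 to 643) for the NMDA peaks and 306 bp (228 to 578) for the control peaks, against 303 and 316 bp over the other peaks of the NMDA and the control list. Among the other peaks of at least 4-fold, which are closer to them in strength, the median was 469 bp in the NMDA list, against 415 bp in the control list, both above those of Top2b.

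The local background at the sites could be read as well. In MACS2 a background above the genome-wide value is set by the input reads near the summit. At 44.7 kb the background was the genome-wide value in both lists, so the input was not raised there above that level. At 47.8 kb it was 1.24 times, at 48.4 kb 1.22 times and at 57.5 kb 1.06 times the genome-wide value in both lists alike. At 44.0 kb it was 1.50 times in the NMDA list and 1.59 times in the control list, the highest at any shared site. Over all peaks of Top2b, 11 of 13 in the NMDA list had a background above the genome-wide value, where 32.3% of all NMDA peaks with a whole fragment number did, and 12 of 13 in the control list, where 38.8% did. Backgrounds of nearby summits draw on overlapping stretches of input, so the sites are not independent in this count. The tallest NMDA peak, at 47.8 kb with a height of 13.4, had a background of 1.24 times the genome-wide value. The tallest control peak, at 48.4 kb with a height of 16.5, had one of 1.22 times. The part of the input in the peaks was not tested.

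**Figure D4:**
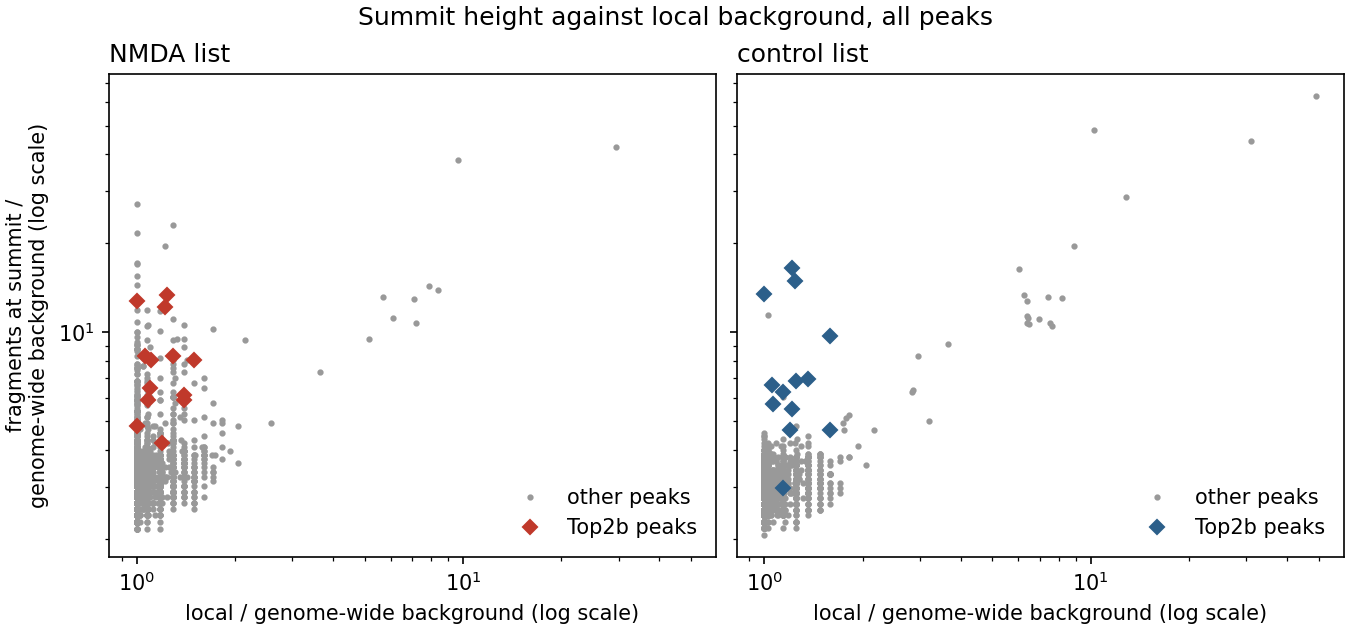
Height at the summit against local background, both over the genome-wide background of the list and both on log axes, for all peaks with a whole fragment number in the NMDA list (left) and the control list (right). Top2b peaks (diamonds) have backgrounds of at most 1.50 in the NMDA list, against 1.59 in the control list. Their heights reach 13.4 and 16.5, at other peaks than those with the highest background.

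Few genes held several peaks, and those that did were mostly far longer than Top2b. Of 21631 protein-coding genes 6.56% had an NMDA peak in the gene body and 6.88% a control peak. At least 3 peaks were held by 80 genes in the NMDA list and by 67 genes in the control list, Top2b among them, and 76 and 65 of these were longer than Top2b. Genes whose annotated bodies overlap were counted separately, so a single peak can count for several genes. Pcdha1 to Pcdha12, for example, each held 3 control peaks. Among 1665 other genes of 80 to 125% of the length of Top2b, 164 had an NMDA peak and 181 a control peak, and 148 and 169 of these had just 1. The highest of them was Cwc22, a splicing factor gene, with 4 NMDA peaks and 9 control peaks, of which 1 in each list was paired. Top2b had 19.8 peaks per 100 kb in both lists. Among genes with at least 3 peaks this was the highest density in the control list and the next to highest in the NMDA list, after Npas4, an activity-induced transcription factor gene, with 26.2. Cwc22 and Npas4 were named after their values were seen.

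The peaks of other genes with several were rarely strong and rarely paired. No other protein-coding gene had more than 1 paired peak in either list. At least 2 peaks of 4-fold or more were found in 2 other genes, both in the NMDA list. These were Dlg2, a synaptic scaffold gene of 1973 kb with 11 NMDA and 4 control peaks, and Eml6, which encodes a protein of a microtubule-associated family, with 3 and 1. Each had 2 NMDA peaks of that strength and no paired peak. Lrp1b, a receptor gene of 2058 kb, was the other gene with at least 5 peaks in both lists. It had 6 NMDA and 7 control peaks, of which none was paired.

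**Figure D5:**
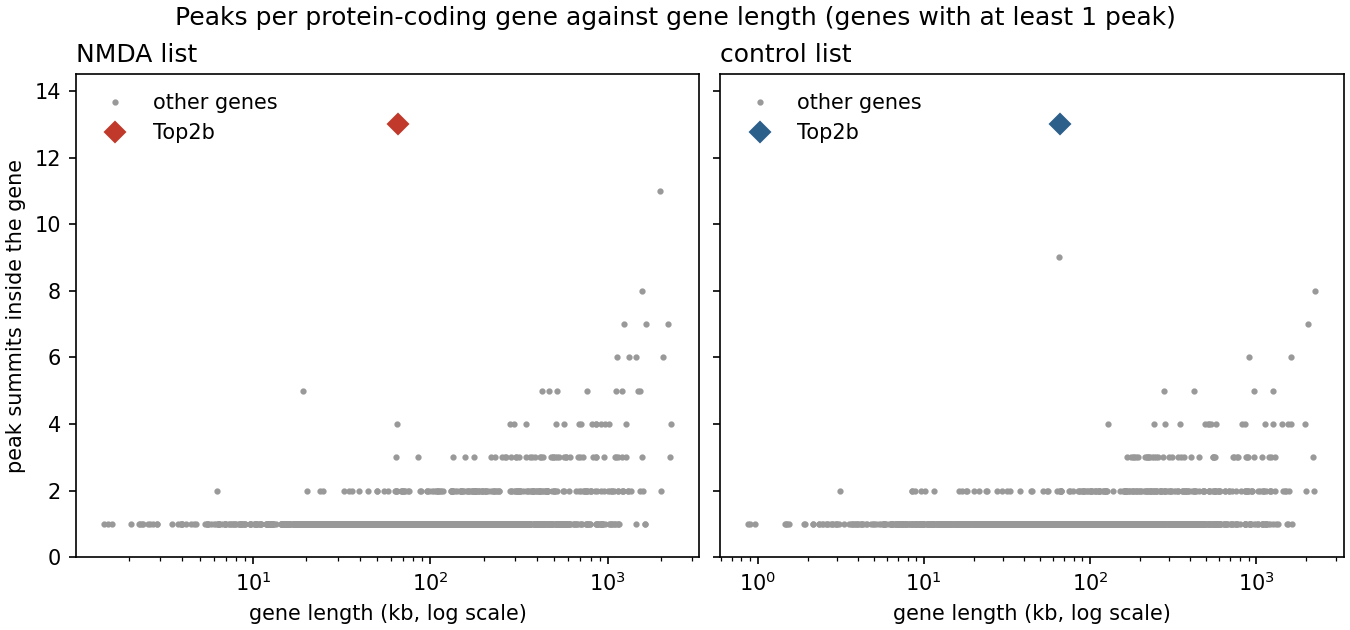
Number of peak summits inside each protein-coding gene against gene length in kb (log axis), for genes with at least 1 peak in the NMDA list (left) or the control list (right). Top2b (diamond, 13 peaks in each list) lies at 65.6 kb, to the left of the other genes with 4 or more peaks, except Npas4 in the left panel and Cwc22 in both.

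Peaks were also counted at a list of 25 other genes. It held genes of topoisomerases, of repair of trapped topoisomerase and of DNA ends, of cohesin and CTCF, and Hsf1. With the same rule as for Top2b, 4 had an NMDA peak, where 9.41% of protein-coding genes did, and 5 had a control peak, where 10.3% did. Top2a had none in either list, and neither did Top1, Top3a, Top3b, Tdp1 or Tdp2, the last of which encodes the enzyme that removes topoisomerase II from DNA ends. In either list 6 of the 25 had a peak, where 17.0% of protein-coding genes did, and 19 had none. These shares come from few genes and are read no further. A gene without a peak may still hold signal below the level at which peaks were listed.

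The peaks at the remaining 6 genes varied in strength. Prkdc, which encodes the kinase subunit that acts in end joining, had the highest of them, a control peak of 100 fragments, a height of 11.4, and no NMDA peak. Smc3, a cohesin subunit gene, had a paired peak near its start with 23 fragments in the NMDA list, against 25 in the control list, heights of 2.77 and 2.86. Hsf1 had a paired peak with 32 fragments in the NMDA list, against 42 in the control list, where its 3.60-fold enrichment ranked 35th, and a second NMDA peak of 27 fragments 186 bp from one end of the gene. Xrcc4, an end joining gene, had 1 peak in each list, of 22 and 25 fragments, that did not overlap. Atm, a break-signalling kinase gene, had 1 NMDA peak of 28 fragments, and Stag1, another cohesin gene, had 2 control peaks of 26 and 35 fragments. The 11 peaks at these 6 genes thus had 22 to 100 fragments. The Top2b peaks had 35 to 111 in the NMDA list and 26 to 144 in the control list. The medians over all peaks outside Top2b were 25 and 26. Top2b was chosen by the strength of its peaks, so these numbers are a description.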

How the data were processed

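HSF1 ChIP-seq was available as 2 deposited peak lists, NMDA and control. FastQC, Trimmomatic, BWA, SAMtools and MACS2 and the builds mm10 and GRCm38.p6 are named without versions, per the submitters' processing notes. The step that merged the replicates is not stated; list names read replicated and single input. For each peak the authors deposited a score (not used further), a fold enrichment ratio at the summit, and p and q as −log10 values. Each list was assigned to the condition in its name.

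Fragment number k and background b at a summit were solved from fold = (k + 1)/(b + 1) and the Poisson upper tail, which is how MACS2 is known to compute them; the settings used are not stated. On data simulated with this same formula the solver returned the fragment number of 500 of 500 peaks. This checks the solving step, not whether the lists follow the formula. Total depth is unknown. Peaks paired when they overlapped by at least 1 bp. Genes and promoters came from RefSeq tables of GRCm38.p6, without exons. Comparison genes followed a rule on counts of strong and of paired peaks. Members and lists were chosen with earlier results of these data known. Python 3.11.15, SciPy 1.17.1 and pandas 2.3.3 were used. Designs on exons could not be run. Alternatives changed the window, the thresholds and the pairing.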

Additional observations from a re-analysis of the deposited data

How the results depend on the processing

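The counts changed little. With the gene body only, with 50 kb either side and with q below 0.05 each list kept 13 peaks at Top2b, and with a fold of at least 4 there were 11 NMDA and 10 control peaks. Paired NMDA peaks were 9 with a reciprocal overlap of 50% and 10 otherwise, and paired control peaks were 9 with that overlap, 10 with summits within 100 bp and 11 otherwise. The ratio of summed height, 0.956, was 0.908 without scaling and 0.976 with deposited folds, settings chosen after seeing the data. The exon alternatives were not run, as exon positions were not used here. Replicates could not be left out in turn. No paired analysis was possible because replicates were merged before deposit.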
